A study of Mus musculus with 13 samples.

Results

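The enzymes described here oxidise ethanol and acetaldehyde in liver or activate the acetate that results. They are the genes Adh1, Adh4, Adh5, Adh7, Cyp2e1, Aldh2, Aldh1a1, Aldh1b1, Aldh3a2 and Acss2, chosen by gene symbol, and they are 10 of the 53392 genes in the count table. All 10 passed the filter on low counts, which kept 14317 genes. RNA of whole liver was sequenced in 13 female mice, weight-matched littermates of 8 to 14 weeks, all fed a diet with 28% of calories from ethanol for 4 weeks. All mice were homozygous both for Albumin-Cre and for the Rosa26-loxP-stop-loxP-rtTA allele. Through these, rtTA, the activator that needs doxycycline (Dox), was made in hepatocytes. Only ASAH+ mice also carried TRE-ASAH1, a ceramidase transgene that is expressed when rtTA and Dox are both present. The 3 groups were ASAH- mice on the ethanol diet with Dox at 200 mg/l (Etoh-Dox, 4 mice), ASAH+ mice on Etoh-Dox (5 mice) and ASAH+ mice on the ethanol diet without Dox (Etoh, 4 mice). The genotype comparison sets ASAH+ against ASAH- mice, all on Etoh-Dox. The diet comparison sets ASAH+ mice on Etoh-Dox against those on Etoh, and the mixed comparison, which differs in both, sets the ASAH- mice against ASAH+ mice on Etoh. Each log2 fold change is the group named before "against" relative to the other. No mouse without ethanol was sequenced, so the values show these enzymes under ethanol feeding and not their response to it.

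For ASAH+ mice, the Dox treatment in the sample titles is the opposite of that in the descriptions and induction labels, and the design text gives 4 mice per group where 1 group has 5. The groups used here follow the descriptions. The level of Asah1, the mouse gene on which reads of the transgene were counted, was 9668 to 15935 CPM (reads scaled by edgeR to a common library size with TMM factors) in the 5 ASAH+ mice on Etoh-Dox and 40.0 to 55.0 CPM in the other 8 mice. The hepatocyte markers held 7 of 7 genes above the filter, with Alb the most abundant at 64720 to 110750 CPM, so the labelled tissue was seen in every library. The depth was 17819486 to 35358711 gene reads in a mouse (median 24454043), and the libraries' mean correlations with one another were 0.973 to 0.978, a measure too even to show a difference in single markers. In whole-liver RNA, fewer cells of a type and less RNA per cell cannot be told apart.

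In liver, ethanol is oxidised to acetaldehyde mainly by cytosolic alcohol dehydrogenases, with a further share by the microsomal cytochrome Cyp2e1, whose protein is known to build up during ethanol feeding largely because it is broken down more slowly. Acetaldehyde dehydrogenases, above all mitochondrial Aldh2, turn the reactive acetaldehyde into acetate, and acyl-CoA synthetases join acetate to coenzyme A. Many of these genes are expressed unevenly between the pericentral and the periportal hepatocytes of the lobule.

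The 4 alcohol dehydrogenase genes lie in 1 cluster on the plus strand of chromosome 3 (GRCm38, gene models of GENCODE M21), in the order Adh7 at chr3:138217760-138233382, Adh1 at chr3:138260991-138290698, Adh4 at chr3:138415466-138430892 and Adh5 at chr3:138443093-138455499. The cluster spans 237740 bases, with 27608 bases between Adh7 and Adh1, 124767 between Adh1 and Adh4, where Adh6a and Adh6b lie, and 12200 between Adh4 and Adh5. The other 6 genes are on 6 other chromosomes. Cyp2e1 is at chr7:140763739-140774987 and Acss2 at chr2:155517948-155585724, both on the plus strand. Aldh1a1 is at chr19:20492715-20643465 and Aldh1b1 at chr4:45799022-45804604, also on the plus strand. Aldh2 is at chr5:121566027-121593824 and Aldh3a2 at chr11:61223417-61267464, both on the minus strand. The identifiers in the count table are ENSMUSG00000074207 (Adh1), ENSMUSG00000037797 (Adh4), ENSMUSG00000028138 (Adh5), ENSMUSG00000055301 (Adh7), ENSMUSG00000025479 (Cyp2e1), ENSMUSG00000029455 (Aldh2), ENSMUSG00000053279 (Aldh1a1), ENSMUSG00000035561 (Aldh1b1), ENSMUSG00000010025 (Aldh3a2) and ENSMUSG00000027605 (Acss2).

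Together the 10 genes took 1.11 to 1.71% of a mouse's reads, of which Cyp2e1 alone took 0.623 to 1.18%. Per kilobase of transcript, the level was highest for Cyp2e1, with a mean over 13 mice of 4353 ± 915 CPM per kilobase (SD), followed by Adh1 at 1344 ± 152. Aldh2 had 408 ± 41.9 CPM per kilobase, Aldh1a1 264 ± 49.8, Aldh3a2 183 ± 30.1 and Adh5 167 ± 13.5. The lower levels per kilobase were those of Aldh1b1 at 58.8 ± 13.8, Acss2 at 40.7 ± 12.8, Adh4 at 38.2 ± 10.4 and Adh7 at 0.679 ± 0.187. Neighbours in this order did not overlap across the 13 mice between Cyp2e1 and Adh1, between Adh1 and Aldh2, between Adh5 and Aldh1b1, and between Adh4 and Adh7. The other neighbours overlapped in range. Aldh2 was above Aldh1a1 in 13 of 13 mice, Aldh1a1 above Aldh3a2 in 12, and Aldh1b1 above Acss2 in 12. Acss2 was above Adh4 in 8 of 13 mice, and Aldh3a2 was above Adh5 in 10 of 13.

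**Figure D1:**
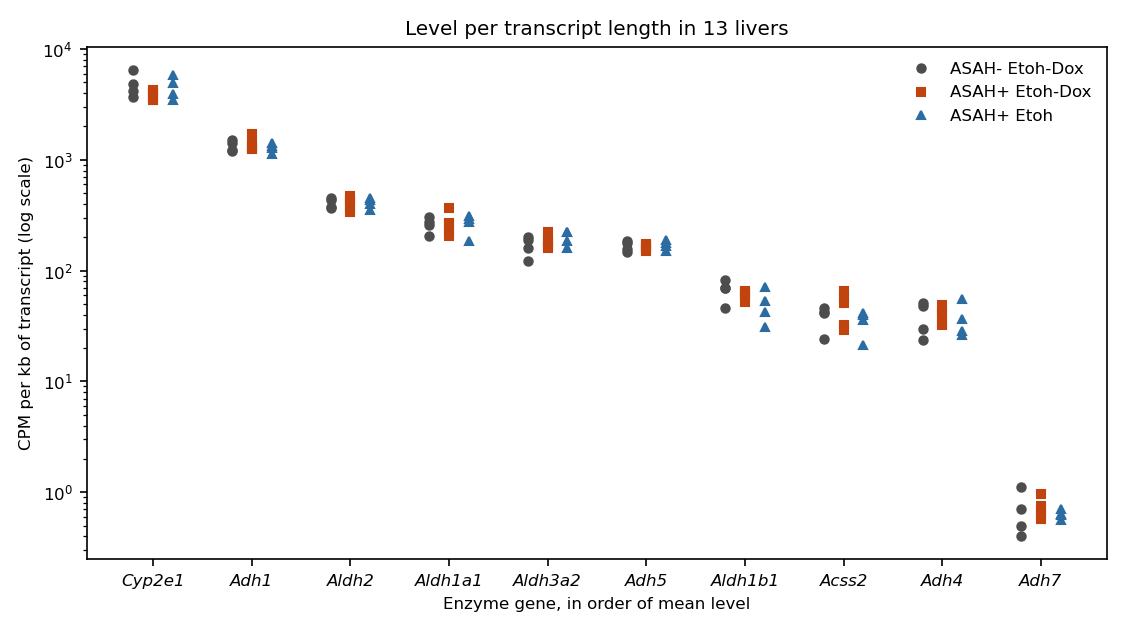
Level of each enzyme gene in CPM per kilobase of transcript on a log axis, with 1 point per mouse for 13 mice and the groups marked. Cyp2e1 lies above every other gene, and Adh7 lies below all others at 0.404 to 1.11 CPM per kilobase.

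Some of the start regions are shown here because their genes varied together across mice in the correlations given further on: Adh5 with Cyp2e1, and Aldh1a1 with Acss2. Aldh1a7, the closest relative of Aldh1a1, is shown beside them because it shares transcript sequence with Aldh1a1 and was the gene most like Acss2. The sequences are from RefSeq on GRCm38.p6, each 250 bases before to 50 bases after a gene's start, 5′ to 3′ on the gene's strand. Of the 10 genes, 9 had such a window, and Aldh2 had none. Capitals mark matches, on either strand, to the TATA box (letters TATAAA), the GC box (letters GGGCGG), the CCAAT box, the E-box (letters CACGTG), the D-box in its forms TTATGTAA and TTACGTAA, the sterol regulatory element TCACNCCAC and the octamer ATGCAAAT. The windows are Adh5 at chr3:138442843-138443142 (plus), Cyp2e1 at chr7:140763569-140763868 (plus), Acss2 at chr2:155517793-155518092 (plus), Aldh1a1 at chr19:20601718-20602017 (plus) and Aldh1a7 at chr19:20727507-20727806 (minus).
Adh5: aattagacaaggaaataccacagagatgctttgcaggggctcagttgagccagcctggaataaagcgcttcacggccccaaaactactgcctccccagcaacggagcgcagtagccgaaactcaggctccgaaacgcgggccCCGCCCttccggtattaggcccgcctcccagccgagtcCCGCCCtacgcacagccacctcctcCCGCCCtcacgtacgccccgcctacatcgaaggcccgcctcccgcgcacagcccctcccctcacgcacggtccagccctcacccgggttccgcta
Cyp2e1: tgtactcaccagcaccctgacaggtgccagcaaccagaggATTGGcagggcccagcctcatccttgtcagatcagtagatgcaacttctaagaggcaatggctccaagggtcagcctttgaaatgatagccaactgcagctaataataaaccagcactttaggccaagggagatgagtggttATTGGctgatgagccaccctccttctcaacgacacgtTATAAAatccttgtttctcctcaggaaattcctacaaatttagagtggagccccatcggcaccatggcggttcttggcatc
Acss2: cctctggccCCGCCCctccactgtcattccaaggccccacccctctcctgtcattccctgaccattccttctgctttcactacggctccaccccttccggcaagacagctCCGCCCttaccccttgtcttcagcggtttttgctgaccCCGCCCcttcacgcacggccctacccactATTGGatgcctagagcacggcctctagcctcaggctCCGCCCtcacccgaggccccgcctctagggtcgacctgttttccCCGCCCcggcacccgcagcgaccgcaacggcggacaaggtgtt
Aldh1a1: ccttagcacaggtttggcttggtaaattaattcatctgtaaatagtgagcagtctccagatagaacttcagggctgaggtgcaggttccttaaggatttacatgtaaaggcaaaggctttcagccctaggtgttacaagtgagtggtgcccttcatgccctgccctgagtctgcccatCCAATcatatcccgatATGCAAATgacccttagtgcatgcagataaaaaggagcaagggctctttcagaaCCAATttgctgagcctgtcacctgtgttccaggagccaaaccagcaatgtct
Aldh1a7: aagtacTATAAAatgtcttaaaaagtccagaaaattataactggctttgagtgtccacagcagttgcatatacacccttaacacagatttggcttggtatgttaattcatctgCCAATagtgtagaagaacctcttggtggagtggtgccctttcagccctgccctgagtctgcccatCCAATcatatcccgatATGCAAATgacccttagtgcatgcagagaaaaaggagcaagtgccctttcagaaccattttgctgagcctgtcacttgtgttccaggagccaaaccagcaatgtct
The Acss2 window held 5 GC boxes and the Adh5 window 3, a motif that 35.7% of the 32851 windows of this length hold. In the Cyp2e1 window a TATA box began at base -31 from the start, and 13.6% of all windows hold these letters. CCAAT, held by 37.4% of all windows, was found in the windows of Cyp2e1, Acss2, Aldh1a1 and Aldh1a7 and not in that of Adh5. The last 120 bases of the Aldh1a1 and Aldh1a7 windows shown were the same at 115 positions (95.8%), with a longest shared run of 65 bases. Both of these windows held ATGCAAAT at base -56, as do 1.74% of all windows. The E-box (held by 7.15% of windows), the D-box forms TTATGTAA (0.938%) and TTACGTAA (0.119%) and the sterol regulatory element (1.24%) were not found in these 5 windows. Among the 30 matches in all windows of the enzyme genes and Aldh1a7, 0 overlapped. A match describes letters only, and RefSeq has a second window each for Adh5 and Aldh1a1 that is not shown. That of Aldh1a1, at chr19:20492333-20492632, lies nearer the start of the gene model than the window shown. Its last 120 bases were the same as those of Aldh1a7 at 31 positions (25.8%), with a longest shared run of 8 bases. The likeness to Aldh1a7 is therefore that of 1 of the 2 Aldh1a1 windows.

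Adh1 encodes the main hepatic alcohol dehydrogenase. In ASAH- mice on Etoh-Dox, replicates 1 to 4 had 1841, 2266, 1802 and 2116 CPM of Adh1. The 5 ASAH+ mice on Etoh-Dox had 2569, 1849.8, 1918, 2059 and 1967 CPM, and the 4 ASAH+ mice on Etoh had 2101, 1984, 1899 and 1694 CPM. Group means were 2006 ± 223 (SD, n = 4), 2073 ± 288 (n = 5) and 1919 ± 172 CPM (n = 4), and all 3 groups overlapped, with replicate 1 of ASAH+ on Etoh-Dox the highest mouse and the other 12 within 1694 to 2266 CPM. In the genotype comparison the log2 fold change of Adh1 was 0.05, with a 95% interval of -0.19 to 0.28.

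Adh5 encodes the class III enzyme, which oxidises formaldehyde bound to glutathione and has little activity on ethanol at low concentrations. Its level was 252, 286, 238 and 299 CPM in ASAH- mice on Etoh-Dox, 282, 275, 253, 244 and 264 CPM in ASAH+ mice on Etoh-Dox, and 269, 286, 302 and 243 CPM in ASAH+ mice on Etoh. These values overlapped in all groups and spread least of the 10 genes, with a coefficient of variation of 8.05% over 13 mice and a highest mouse 1.27 times the lowest. The group means of Adh5 were 269 ± 28.4, 263 ± 15.5 and 275 ± 25.5 CPM in the same order, and its log2 fold change in the genotype comparison was -0.03 (95% interval -0.22 to 0.16).

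Adh4 encodes the class II enzyme, which acts on ethanol at high concentrations and on retinol. Adh4 was at 67.5, 38.8, 30.97 and 62.6 CPM in ASAH- mice on Etoh-Dox, 42.3, 43.5, 56.0, 64.2 and 53.8 CPM in ASAH+ mice on Etoh-Dox, and 37.5, 73.1, 48.5 and 34.4 CPM in ASAH+ mice on Etoh. High and low mice occurred in every group and the groups overlapped. The group means were 49.99 ± 17.8, 52.0 ± 9.13 and 48.4 ± 17.5 CPM, and the highest mouse had 2.36 times the level of the lowest. Adh7, the class IV enzyme known mainly from the stomach, was near the low end of what was measured, at 1.39 to 3.83 CPM from 34 to 107 counts per mouse. Counting error weighs more on Adh7 than on the other 9 genes, none of which had fewer than 595 counts in a mouse.

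Cyp2e1 encodes the microsomal enzyme. In ASAH- mice on Etoh-Dox it was at 7719.7, 8802, 6729 and 11784 CPM. ASAH+ mice on Etoh-Dox had 6311, 7875, 7198, 6353 and 7703 CPM, and ASAH+ mice on Etoh had 7259.8, 10613, 8962 and 6415 CPM. The ASAH+ mice on Etoh-Dox lay close together, with 7088 ± 734 CPM (SD, n = 5). Replicates 2 and 4 of ASAH- and replicates 2 and 3 of ASAH+ on Etoh lay above all of them, but the groups overlapped. The means of ASAH- mice on Etoh-Dox and of ASAH+ mice on Etoh were 8759 ± 2187 and 8313 ± 1864 CPM (SD, n = 4 each). In the genotype comparison the log2 fold change of Cyp2e1 was -0.31 (95% interval -0.66 to 0.05), a ratio of 0.809 (0.632 to 1.04). By edgeR's quasi-likelihood test its p was 0.0887 and its Benjamini-Hochberg adjusted p was 0.9997, and p was 0.127 by exact permutation (two-sided, as are all such tests here). Of 20 pairs of an ASAH+ and an ASAH- mouse, 4 had the higher level in the ASAH+ mouse. Without replicate 4 of ASAH- on Etoh-Dox the log2 fold change was -0.13, and over the alternative settings it was -0.41 to -0.13, with adjusted p-values of at least 0.900. Cyp2e1 ranked 5 to 19 among all genes by reads in a mouse. Of its 31-base words, 5.83% also occur in transcripts of other genes, 613 genes in all.

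**Figure D2:**
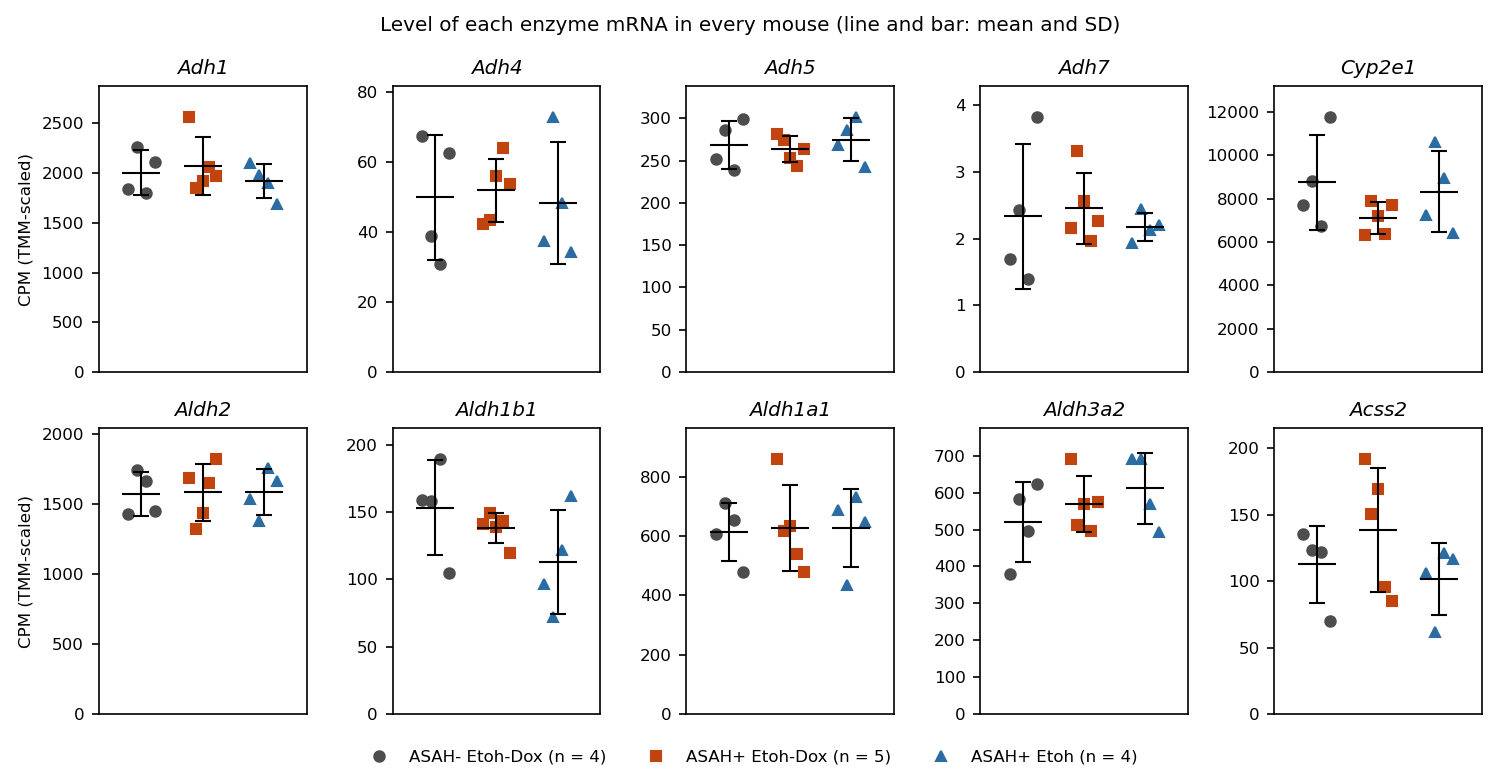
CPM of each enzyme gene in each of the 13 mice, 1 panel per gene, with points by group and a bar at each group's mean with its SD. The groups overlap in all 10 panels, and the highest Cyp2e1 value, 11784 CPM, is a single ASAH- mouse on Etoh-Dox.

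Aldh2 encodes the mitochondrial enzyme that clears most acetaldehyde. It was at 1427, 1737, 1665 and 1451 CPM in ASAH- mice on Etoh-Dox, 1683, 1316, 1437, 1647 and 1821 CPM in ASAH+ mice on Etoh-Dox, and 1535, 1377, 1754 and 1661 CPM in ASAH+ mice on Etoh. The groups overlapped and their means lay close together, at 1570.2 ± 154 (SD, n = 4), 1581 ± 202 (n = 5) and 1582 ± 163 (n = 4). In the genotype comparison the 95% interval of its log2 fold change ran from -0.22 to 0.24. Aldh2 shared 0 of its 31-base words with another gene's transcripts.

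Aldh1a1 encodes a cytosolic enzyme that acts on retinal as well as acetaldehyde. ASAH- mice on Etoh-Dox had 607, 713, 653 and 479.5 CPM of Aldh1a1, ASAH+ mice on Etoh-Dox 861, 618, 632, 539.5 and 480.2 CPM, and ASAH+ mice on Etoh 689, 436, 731 and 648 CPM. The group means were 613 ± 99.0, 626 ± 145 and 626 ± 131 CPM, and the groups overlapped, while the highest mouse had 1.97 times the level of the lowest. Of the 31-base words of Aldh1a1, 5.7% (281) are shared with Aldh1a7, which had 2018 to 6474 counts per mouse against 10712 to 31129 for Aldh1a1.

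Aldh1b1 encodes a mitochondrial enzyme that also acts on acetaldehyde. It was at 159, 159, 189.6 and 105 CPM in ASAH- mice on Etoh-Dox, 141, 149, 139, 143 and 119 CPM in ASAH+ mice on Etoh-Dox, and 96.7, 71.7, 121 and 162 CPM in ASAH+ mice on Etoh. Replicates 1 and 2 on Etoh lay below every mouse on Etoh-Dox, while replicate 4 on Etoh was the second highest mouse of all, so the groups overlapped. Group means were 153 ± 35.3, 138 ± 11.4 and 113 ± 38.5 CPM. In the mixed comparison the log2 fold change of Aldh1b1 was 0.44 (95% interval -0.03 to 0.91). It had the lowest p of the 10 genes in that comparison, 0.0632 by edgeR's quasi-likelihood test with an adjusted p of 0.565, and 0.2 by exact permutation, so it did not pass. Under the alternative settings this log2 fold change was 0.27 to 0.65.

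Aldh3a2 encodes the fatty aldehyde dehydrogenase of the endoplasmic reticulum, with long-chain aldehydes as its main substrates. Its level was 378, 582, 496 and 622 CPM in ASAH- mice on Etoh-Dox, 692, 513, 569.9, 496 and 576 CPM in ASAH+ mice on Etoh-Dox, and 691, 692, 570.1 and 494 CPM in ASAH+ mice on Etoh. The lowest value was replicate 1 of ASAH- mice, and the groups, with means of 519.7 ± 108, 569.5 ± 76.9 and 612 ± 97.0 CPM, overlapped. The log2 fold change of Aldh3a2 was 0.13 in the genotype comparison (95% interval -0.19 to 0.45) and -0.24 in the mixed comparison (-0.57 to 0.10).

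Acss2 encodes the acetyl-CoA synthetase of cytosol and nucleus. In ASAH- mice on Etoh-Dox it was at 136, 123, 122 and 70.4 CPM, in ASAH+ mice on Etoh-Dox at 192, 151, 169.7, 95.3 and 85.3 CPM, and in ASAH+ mice on Etoh at 106, 61.9, 121 and 117 CPM. Acss2 spread most of the 10 genes, with a coefficient of variation of 31.3% and a highest mouse at 3.11 times the lowest. Replicates 1 to 3 of ASAH+ on Etoh-Dox were the 3 highest mice, while replicates 4 and 5 of that group lay among the low values of the others. Group means were 113 ± 28.9, 139 ± 46.7 and 101 ± 27.1 CPM. In the diet comparison the log2 fold change of Acss2 was 0.45 (95% interval -0.15 to 1.06). Its p by edgeR's quasi-likelihood test was 0.131, adjusted 0.756, and by exact permutation 0.214, so the difference was within the spread between mice.

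By the design text, the sequencing was done to find which control serves best for the induced transgene, one that differs in genotype or in diet. The 3 comparisons share mice, so they are not independent of one another. In the genotype comparison, 0 of the 10 enzyme genes passed edgeR's adjusted p of 0.1, beside 0.014% of all 14317 genes (2 genes, Asah1 and Sod1). At an unadjusted p under 0.05 the count was 0 of 10, beside 2.86% of all genes. DESeq2 called 0 of 10, beside 0.0756% of the 15863 genes to which it gave an adjusted p, and groups that did not overlap were 0 of 10, beside 0.887%. In the diet comparison, edgeR again called 0 of 10 (background 0.014%, 2 genes, Asah1 and Sod1), with 0 at an unadjusted p under 0.05 (7.29%), 0 by DESeq2 (2.97% of only 3198 genes with an adjusted p) and 0 without overlap (2.58%). In the mixed comparison, edgeR called 0 of 10 (0.014%, 2 genes, mt-Co2 and mt-Co3), with 0 at an unadjusted p under 0.05 (9.19%), 0 by DESeq2 (1.49% of 10065 such genes) and 0 without overlap (5.5%). Sod1, mt-Co2 and mt-Co3 are named after their values were seen. DESeq2 gave an adjusted p to 10, 9 and 9 of the enzyme genes in these comparisons, and the lowest were 0.9998, 0.504 and 0.450.

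With so few genes called in all, the intervals say more than the counts. Of the 30 intervals of the log2 fold change, 29 lay within 1 of 0, the exception being that of Acss2 in the diet comparison. Across the 10 enzyme genes the fold changes were 0.809 to 1.23 in the genotype comparison, 0.853 to 1.37 in the diet comparison and 0.850 to 1.36 in the mixed comparison. Their exact permutation p-values were 0.127 to 0.96, 0.175 to 1.0, and 0.2 to 0.943, where the smallest possible are 0.00794 for 5 against 4 mice and 0.0286 for 4 against 4. The median log2 fold change of the 10 genes was 0.04, 0.05 and 0.05 in the same order, beside -0.00, 0.01 and 0.02 over all genes tested. Across all 13 mice the median SD of log2 CPM was 0.28 for the 10 genes and 0.24 for all genes tested. Among genes with a mean of at least 100 CPM, it was 0.26 for the 8 enzyme genes and 0.17 for all 1277 such genes.

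**Figure D3:**
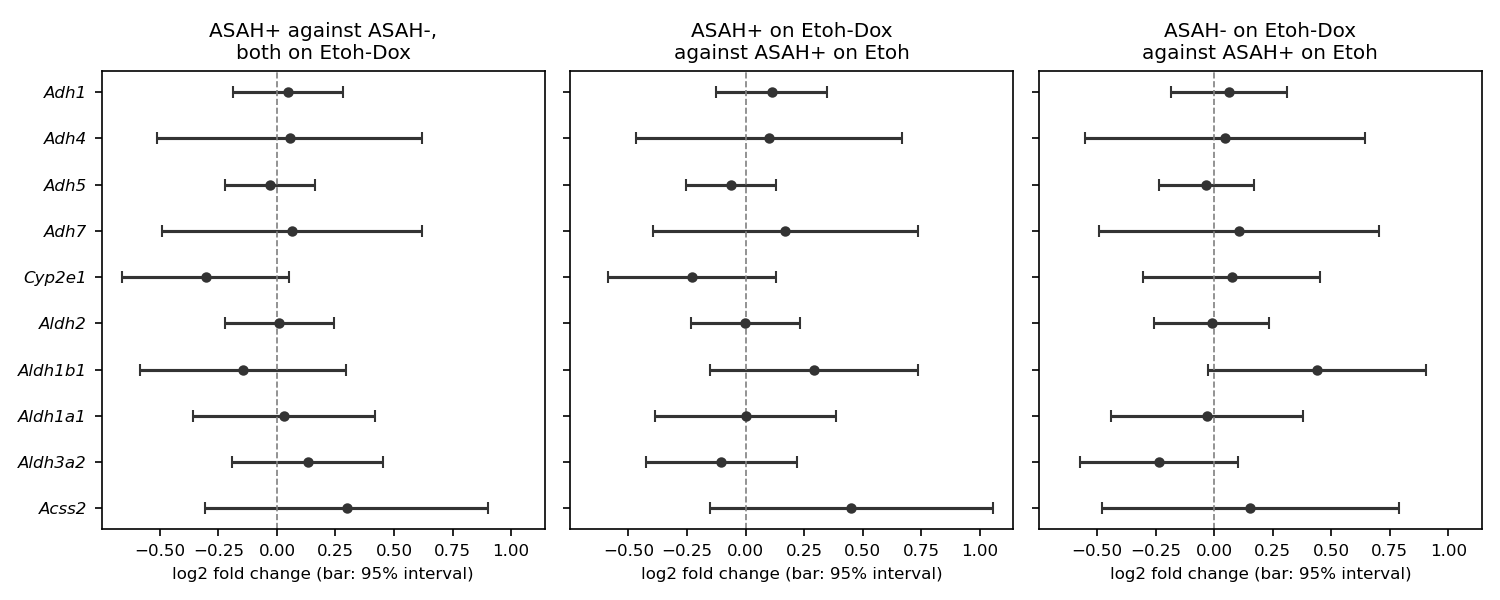
Log2 fold change of each enzyme gene in each of the 3 comparisons, with points for the estimate by edgeR and bars for its 95% interval. Every bar crosses 0, and the bars of Adh5, Adh1 and Aldh2 are the shortest.

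Of the other genes named as alcohol dehydrogenases, a name that does not show the substrate, only Adhfe1 passed the filter, at 61.1 to 91.9 CPM. Adh6a had 0 counts in every mouse and Adh6b had 1 to 8. Adhfe1 passed in 0 of 3 comparisons by edgeR, by DESeq2 and at an unadjusted p under 0.05. Among 16 other aldehyde dehydrogenase genes 13 were tested, of which Aldh1l1 was the most abundant at 769 to 1584 CPM, and Aldh3a1 had at most 3 counts in a mouse. By edgeR's adjusted p of 0.1, 0 of the 13 passed in each comparison, with 0, 1 and 1 at an unadjusted p under 0.05 in the genotype, diet and mixed comparisons and 0, 1 and 1 called by DESeq2. The gene was Aldh5a1, which acts on succinic semialdehyde. Its log2 fold change was -0.23 in the diet and -0.26 in the mixed comparison, with adjusted p-values of 0.548 and 0.392 by edgeR and 0.0858 and 0.0903 by DESeq2. The median log2 fold change of the 13 was -0.04, -0.06 and -0.07.

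A list of 7 further genes linked to microsomal and peroxisomal ethanol oxidation included Cat, the peroxisomal catalase, at 1838 to 2347 CPM. It also held Por, the reductase that passes electrons to Cyp2e1, at 222 to 806 CPM. Of these 7, 0 passed in each comparison by edgeR and 0 by DESeq2, and 2, 1 and 1 were at an unadjusted p under 0.05 by edgeR. In the genotype comparison these were Cyb5a at -0.28 and Cyb5b at 0.28 on the log2 scale. In the diet and mixed comparisons it was Cyp3a11, which had the highest CPM of the 7 over all mice but lay below Cat in both groups on Etoh-Dox, at -0.49 and -0.53, with adjusted p-values by edgeR of 0.535 and 0.392.

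Of 5 further genes that handle acetate and acetyl-CoA, 0 passed in each comparison by edgeR and 0 by DESeq2, with 0, 1 and 1 at an unadjusted p under 0.05. Acly, which makes acetyl-CoA from citrate, was the most abundant at 107 to 636 CPM. Acss1, the mitochondrial relative of Acss2, was near the low end at 0.0578 to 0.529 CPM. Acss3 was at 58.4 to 136 CPM, with log2 fold changes of -0.40 in the diet and -0.49 in the mixed comparison (edgeR's adjusted p 0.676 and 0.484). Among 10 genes of lactate dehydrogenase and of the shuttles that carry reducing equivalents from NADH, 0 passed by edgeR and 0 by DESeq2, with 0, 1 and 0 at an unadjusted p under 0.05. That gene was Slc25a12, at -0.32 in the diet comparison, and Ldha was the most abundant of the 10. Of 7 genes of nonoxidative ethanol disposal 0 passed by edgeR in each comparison, with 0, 1 and 1 at an unadjusted p under 0.05 and 0, 1 and 0 called by DESeq2. That gene was Ugt1a1, at -0.25 in the diet comparison (adjusted p 0.534 by edgeR, 0.0654 by DESeq2) and -0.22 in the mixed comparison, and Ces1c was the most abundant of the 7 at 2996 to 3992 CPM.

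DESeq2's own filter left some of these genes without an adjusted p, which it then could not call. In the diet and mixed comparisons it gave one to 9 and 9 of the other aldehyde dehydrogenase genes, 3 and 4 of the 5 acetate genes, 9 and 10 of the 10 shuttle genes, and 5 and 7 of the 7 genes of nonoxidative disposal.

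Markers of other cells were read beside the enzyme genes, and 0 of them passed edgeR's adjusted p of 0.1 in a comparison. In the diet comparison DESeq2 gave an adjusted p to only 4 of 5 red cell, 3 of 6 endothelial, 3 of 6 Kupffer cell, 3 of 6 stellate cell and 1 of 5 cholangiocyte markers, and in the mixed comparison to 1 of 5 cholangiocyte markers. The 5 red cell markers had a summed level of 728 ± 703 CPM (SD) in ASAH- mice on Etoh-Dox, 560.4 ± 257 CPM in ASAH+ mice on Etoh-Dox and 166 ± 24.1 CPM in ASAH+ mice on Etoh, with Hbb-bs the most abundant. In the ASAH- group 1 mouse carries much of the mean: replicate 3 had 1714 CPM, the others 231, 752 and 215 CPM, and without replicate 3 the mean was 399 CPM. Of these 0 were at an unadjusted p under 0.05 in the genotype comparison and all 5 in the diet and mixed comparisons, 1.00 to 2.24 and 1.17 to 2.60 higher on the log2 scale in mice on Etoh-Dox, and DESeq2 called 3 and 4 of them. The 6 sinusoidal endothelial markers summed to 216 ± 51.3, 173 ± 21.3 and 234 ± 35.8 CPM in the same order of groups, with Ehd3 the most abundant. At an unadjusted p under 0.05 were 3, 5 and 0 of them in the genotype, diet and mixed comparisons, all lower in ASAH+ mice on Etoh-Dox, and DESeq2 called 2 in the diet comparison, Clec4g and Fcgr2b. The 6 Kupffer cell markers summed to 428 ± 170, 349 ± 106 and 278 ± 28.6 CPM (most abundant Cd5l), with 0, 0 and 4 at an unadjusted p under 0.05 and 0 called by DESeq2. The 6 stellate cell markers summed to 318 ± 37.5, 271 ± 22.0 and 278 ± 28.9 CPM (Dcn), with 0 called by DESeq2 in each comparison and 2, 0 and 2 at an unadjusted p under 0.05. The 5 cholangiocyte markers summed to 49.6 ± 20.1, 39.4 ± 6.29 and 44.4 ± 5.69 CPM (Spp1), with 0 under that p and 0 called by DESeq2. The 6 lymphocyte markers summed to 3.44 ± 0.998, 3.62 ± 1.20 and 1.96 ± 0.881 CPM (Cd79a over all mice, Cd3e, Cd79a and Cd3g in the groups), with 0, 2 and 2 under that p. DESeq2 called 0 of the 6 lymphocyte markers in the genotype comparison and gave an adjusted p to 0 of them in the other comparisons. Of the 7 hepatocyte markers 2 were under that p in each comparison, and DESeq2 called Serpina1a in the genotype and diet comparisons and Apoa1 in the mixed comparison. What part these cells have in the levels of the enzyme genes was not tested.

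The 10 enzyme genes were then compared with one another across the 13 mice by log2 CPM, in 45 pairs, whose points share libraries and normalization. By Pearson's r, 2 pairs passed a Benjamini-Hochberg adjusted p of 0.1 in permutation tests. Aldh1a1 and Acss2 had r = 0.836 (permutation p 0.00042, adjusted 0.0189) and Spearman's rho = 0.632 (permutation p 0.0234, adjusted 0.150), so the pair passed by r and not by rho. Without the 2 mice farthest from the median of Aldh1a1 the r of Aldh1a1 and Acss2 was 0.668, and with group means removed it was 0.910 (adjusted p 0.0347 by permutation within groups). The pair of Aldh1a1 and Acss2 passed in all 13 sets that leave out 1 mouse. Both genes were highest in replicate 1 of ASAH+ on Etoh-Dox and lowest in replicate 2 of ASAH+ on Etoh. Of the motifs searched, only the CCAAT box was found in the start regions shown for both, and the Aldh1a1 window not shown held 0 of the motifs.

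Adh5 and Cyp2e1 had r = 0.748 (permutation p 0.00271, adjusted 0.0610) and rho = 0.725 (permutation p 0.00698, adjusted 0.0763), and r was 0.745 without the 2 mice farthest from the median of Adh5. With group means removed the r of Adh5 and Cyp2e1 was 0.780 with an adjusted p of 0.106 by permutation within groups. Leaving out 1 mouse at a time, Adh5 and Cyp2e1 passed in 6 of 13 sets. Their adjusted p was 0.108 to 0.235 without replicate 2, 3 or 4 of ASAH- on Etoh-Dox, replicate 3, 4 or 5 of ASAH+ on Etoh-Dox, or replicate 4 of ASAH+ on Etoh. By rho 5 of the 45 pairs passed, among them Adh1 and Aldh3a2 (rho 0.824, permutation p 0.00092, adjusted 0.0414). The r of Adh1 and Aldh3a2 was 0.626 (permutation p 0.0241, adjusted 0.129), and 0.540 without the 2 mice farthest from the median of Adh1. The others, beside Adh5 and Cyp2e1, were Adh5 and Aldh3a2 (rho 0.720), Aldh1b1 and Aldh3a2 (-0.758) and Adh4 and Aldh1a1 (-0.709). Each of these had an adjusted permutation p of 0.0763 by rho and of 0.129 by r, so they did not pass by r. With group means removed 3 further pairs passed: Adh7 and Cyp2e1 (r 0.787, adjusted permutation p 0.0347), Adh1 and Aldh3a2 (0.778, adjusted 0.0694), and Aldh1b1 and Acss2 (0.697, adjusted 0.0834). With the group means kept, r of Adh7 and Cyp2e1 was 0.597 (adjusted permutation p 0.129), falling to 0.264 without the 2 mice farthest from the median of Adh7 and to 0.347 without replicate 4 of ASAH- on Etoh-Dox. That of Aldh1b1 and Acss2 was 0.669 (adjusted permutation p 0.129), falling to 0.483 without the 2 mice farthest from the median of Aldh1b1 and to 0.469 without replicate 2 of ASAH+ on Etoh. Of the motifs searched, 0 were in the start regions shown of both Adh5 and Cyp2e1. The Adh5 window not shown holds a TATA box at base -207, while that of Cyp2e1 is at base -31. Within the cluster on chromosome 3, 3 pairs next in order among the enzyme genes (Adh6a and Adh6b lie between Adh1 and Adh4) did not pass: r was 0.180 for Adh7 and Adh1, 0.0607 for Adh1 and Adh4, and 0.223 for Adh4 and Adh5, with adjusted permutation p-values of 0.688, 0.912 and 0.627.

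**Figure D4:**
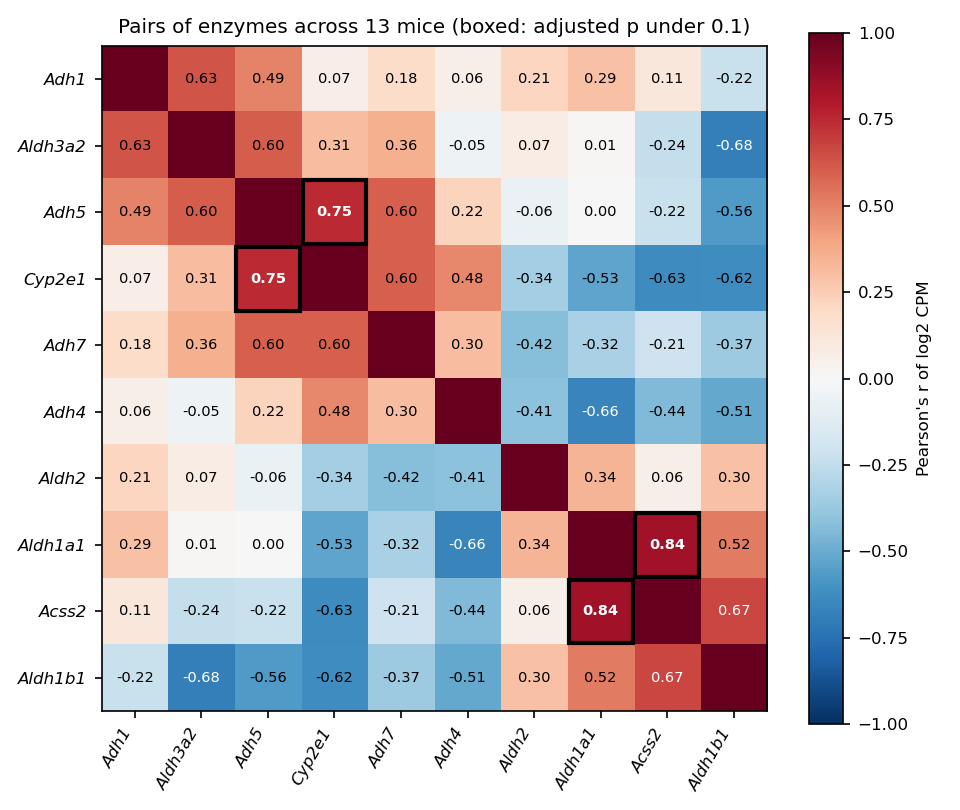
Pearson's r of log2 CPM across 13 mice for each of the 45 pairs of enzyme genes, by colour and number, with the 2 pairs that passed boxed. The highest r is 0.836, for Aldh1a1 and Acss2.

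Each enzyme gene was also set against 3 measures of the liver, in 30 relations across 13 mice: the mean log2 CPM of 10 pericentral markers, that of 10 periportal markers, and the log2 ratio of the clock genes Dbp and Arntl. The time of collection is not in the labels, and Dbp ran from 4.95 to 111 CPM and Arntl from 0.83 to 17.3 CPM across mice. All groups overlapped in these 3 measures, with exact permutation p-values of 0.119 to 0.889 between groups. The pericentral list includes Glul and Oat, and the periportal list Cps1 and Pck1. In the genotype comparison all 10 pericentral markers were lower in ASAH+ mice, with log2 fold changes of -0.42 to -0.09 (median -0.23). They were -0.52 to 0.21 in the diet and -0.42 to 0.61 in the mixed comparison. In each comparison 0 of the 10 passed by edgeR and 0 by DESeq2, which gave an adjusted p to 10, 7 and 10 of them. Of the 10 pericentral markers 1, 1 and 0 were at an unadjusted p under 0.05 in the genotype, diet and mixed comparisons. Of the 10 periportal markers 2, 4 and 2 were, 0 passed by edgeR, and DESeq2 called 0, 2 and 1, among them Cps1 in the diet and Ctsc in the mixed comparison. By r, 3 relations passed an adjusted p of 0.1 in permutation tests, and by rho 0 of the 30 did. Adh5 against the ratio of Dbp to Arntl had r = 0.804 (permutation p 0.0016, adjusted 0.048), rho = 0.703 (permutation p 0.0102, adjusted 0.116) and r = 0.854 without the 2 mice farthest from the median ratio. With group means removed the r of Adh5 and this ratio was 0.796 (adjusted permutation p 0.0482), and without replicate 4 of ASAH+ on Etoh-Dox its adjusted p was 0.118. The mice are spread unevenly along the ratio, and whether the relation is a step or a slope was not tested. Cyp2e1 had r = 0.494 with the same ratio (adjusted permutation p 0.302), which did not pass.

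Adh4 and Aldh1a1 ran in opposite directions against the pericentral markers. For Adh4 r was -0.739 (permutation p 0.0047, adjusted 0.0705) and rho -0.665 (permutation p 0.0158, adjusted 0.116), with r of -0.664 without the 2 mice farthest from the median score. For Aldh1a1 r was 0.705 (permutation p 0.00747, adjusted 0.0747) and rho 0.725 (permutation p 0.00659, adjusted 0.116), with r of 0.758 without those mice. With group means removed r was -0.777 for Adh4 (adjusted permutation p 0.0725) and 0.831 for Aldh1a1 (adjusted 0.0063). Adh4 did not pass without replicate 3 or 4 of ASAH- on Etoh-Dox, replicate 1 or 4 of ASAH+ on Etoh-Dox, or replicate 4 of ASAH+ on Etoh, where its adjusted p was 0.110 to 0.134. Aldh1a1 passed in 4 of 13 sets that leave out 1 mouse, and its adjusted p was 0.103 to 0.137 without replicate 1, 3 or 4 of ASAH- on Etoh-Dox, replicate 1, 4 or 5 of ASAH+ on Etoh-Dox, or replicate 1, 3 or 4 of ASAH+ on Etoh. Cyp2e1, itself known as a pericentral gene, had r = -0.15 with these markers (adjusted permutation p 0.746). Of the relations with periportal markers 0 passed. With group means removed 4 further relations passed: Aldh3a2 with the periportal markers (r -0.739, adjusted permutation p 0.0791) and with the ratio of Dbp to Arntl (0.670, adjusted 0.0924), and Acss2 (0.685, adjusted 0.0725) and Aldh1b1 (0.575, adjusted 0.0791) with the pericentral markers. With the group means kept these r were -0.473, 0.642, 0.364 and 0.380 in the same order, and 0 of the 4 passed.

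**Figure D5:**
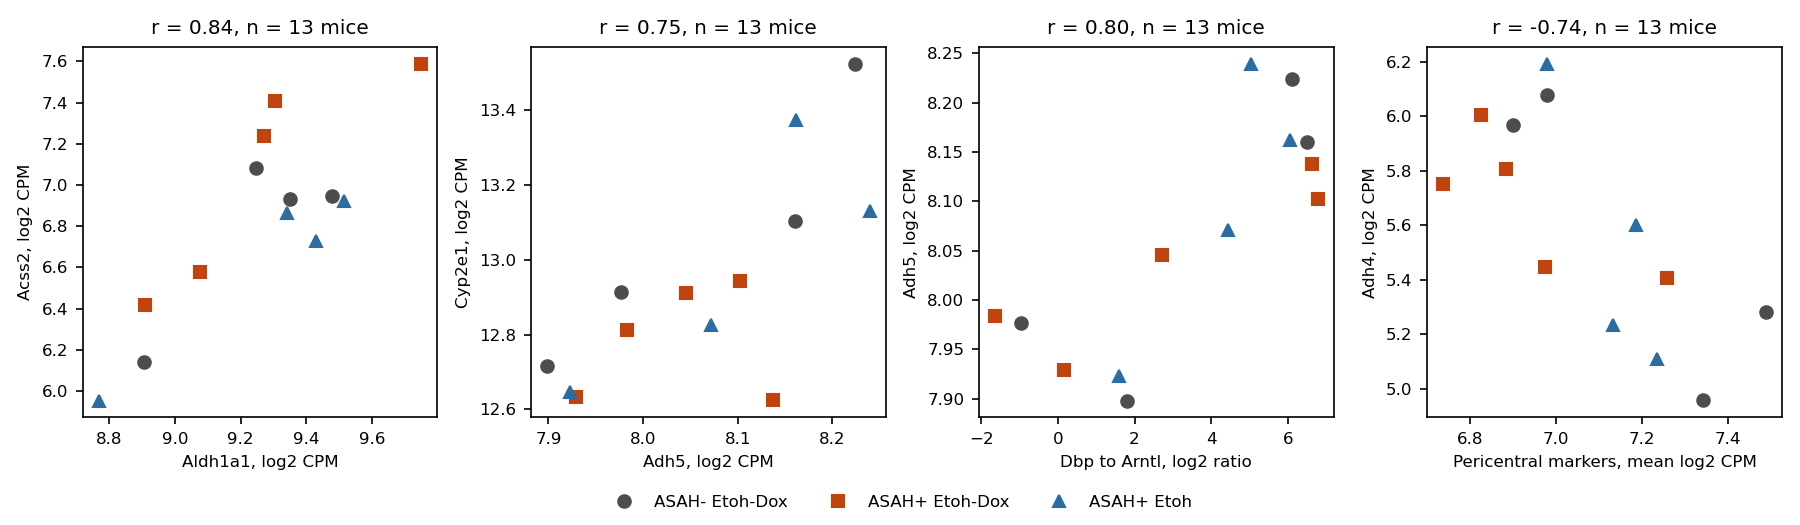
Acss2 against Aldh1a1, Cyp2e1 against Adh5, Adh5 against the log2 ratio of Dbp to Arntl, and Adh4 against the mean log2 CPM of 10 pericentral markers, each gene in log2 CPM with 1 point per mouse for 13 mice and the groups marked by colour and shape. The r values are 0.836, 0.748, 0.804 and -0.739.

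Among 12295 tested genes with a mean of at least 1 CPM, the 3 genes with the highest r to each enzyme gene across 13 mice (2 for Aldh1a1) are given as a description, with no test. Aldh1a1 was most like Slc23a1 (r 0.920 over 13 mice) and Gsta3 (0.910). Acss2 was most like Aldh1a7 (r 0.909), Nsdhl (0.908) and Slc23a1 (0.903), so that Slc23a1 was named for both Aldh1a1 and Acss2. Aldh3a2 was most like Depdc7 (0.937), Hsd17b4 (0.911) and Arhgap29 (0.907), and Cyp2e1 most like Eif2a (0.901), Chp1 (0.896) and Mtrf1l (0.892). The nearest to Aldh2 were Agpat3 (0.940), Mon1a (0.905) and Aamp (0.887), and to Aldh1b1 they were Dbndd2 (0.938), Tyk2 (0.927) and Limk1 (0.926). For the alcohol dehydrogenases, Adh1 was most like Gpx7 (0.887), Rarb (0.874) and Pla2g6 (0.865), and Adh5 most like Gle1 (0.916), Mapk14 (0.911) and A930033H14Rik (0.909). Adh4 was most like Sephs1 (0.917), Gm34667 (0.903) and Rbbp4 (0.901), and Adh7 most like Poli (0.925), Gm16551 (0.915) and 1700020I14Rik (0.900). These values are the highest of 12295 searched for each gene.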

How the data were processed

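RNA of whole liver from 13 mice was measured by RNA sequencing. The authors mapped reads with Salmon to mouse transcripts (GENCODE M19, GRCm38.p6), summarized them with tximport and deposited estimated counts, rounded to whole numbers. Names and coordinates came from GENCODE M21. In R 4.3.3, edgeR 4.0.16 filtered genes by the 3 groups (14317 kept), normalized by TMM and fitted a robust quasi-likelihood model with 3 group means. P-values were adjusted by Benjamini-Hochberg over all genes tested, with a threshold of 0.1. Single values were compared by exact two-sided permutation of mice on mean log2 CPM (prior count 2), and correlations by 100000 permutations, in Python 3.11.15 with scipy 1.17.1. Promoter windows came from RefSeq. Genes named were every member, any gene of the lists (examples being the most abundant and those past the threshold; those under an unadjusted p of 0.05 were picked after their values were seen), the 3 genes most like each member (2 for Aldh1a1), and Asah1 as a check. Alternatives were DESeq2 1.42.0, its size factors, edgeR on 2 groups at a time, no filter on counts, another prior count, a replicate block, the Dbp to Arntl ratio as a covariate, group means removed and each mouse left out. The fit was tested on simulated data. Members and lists were chosen with earlier results of these data known.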

Additional observations from a re-analysis of the deposited data

Results flagged for a closer look

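In the 4 ASAH- mice on Etoh-Dox, Acss2 was lowest in replicate 4 (70.4 CPM, against 122, 123 and 136 CPM in the others). On the log2 CPM scale the gap to the next mouse was 0.8385 of the group's range, above Dixon's 95% critical value for 4 samples. In CPM, a scale added after seeing the data, it was 0.7911 and below that value, so the call depends on the scale. Of 39 groups tested 1 was past its limit, and chance alone gives about 1 in 20.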

How the results depend on the processing

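The enzyme genes called were 0 in every comparison under all settings run, by edgeR and by DESeq2. Of 200 alternative log2 fold changes of the 10 genes in each comparison, 198 lay within 1 SE of the value reported, 2 moved further, and 18, 17 and 17 (genotype, diet and mixed comparison) had the other sign. The lowest adjusted p was 0.900, 0.504 and 0.283. Genes called in all did depend on the setting, and the cause was not tested. In the genotype comparison edgeR called 2, DESeq2 12 (11 on those groups alone), edgeR on those groups alone 1, the replicate block 1, and leaving out 1 mouse 1 to 2. In the diet comparison it was 2, with 95 by DESeq2 (113 on those groups alone), 3 by edgeR on those groups alone, 4 without the count filter and 2 to 8 leaving out 1 mouse, 8 being without replicate 2 of ASAH+ on Etoh. In the mixed comparison it was 2, with 150 by DESeq2 (168 on those groups alone), 0 by edgeR on those groups alone, 0 with the replicate block, 1 with the Dbp to Arntl covariate and 0 to 2 leaving out 1 mouse. Replicate numbers showed no sign of pairing the mice. The mean r of 12 same-number pairs was -0.046 (-0.265 to 0.19), beside 0.0126 (-0.287 to 0.307) for 44 others. With ranges this wide, the check cannot exclude pairing. Of 45 gene pairs 2 passed, 4 with group means removed (13 when mice were permuted across groups, an alternative chosen after seeing the data) and 1 to 5 leaving out 1 mouse. Of 30 relations 3 passed, 7 with group means removed (7 when permuted across groups) and 0 to 4 leaving out 1 mouse, 0 being without replicate 4 of ASAH+ on Etoh-Dox. Limits: 4 or 5 mice per group, no mice without ethanol, and RNA only, so protein and activity were not measured. Counting error is small for all enzyme genes except Adh7. Intervals are for differences between group means. They take the spread between mice into account but do not show where single mice lie.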
